A study of Mus musculus with 14 samples.

Results

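The gp130 cytokine receptors, taken here with 2 of their ligands, are 8 genes of the 44672 in the deposited table, chosen by gene symbol. The receptors are Il6st, Il6ra, Cntfr, Lifr, Osmr and Il11ra1, and the ligands are Cntf and Lif. All 8 were found, once each, and no filter on low values was applied. The values come from translating ribosome affinity purification, in which the EGFP-tagged ribosomal protein L10a is pulled down from a tissue with anti-EGFP antibodies (IP) and the bound RNA is sequenced beside RNA of the whole lysate (input). Tagged ribosomes were made in POMC-Glp1r+ neurons of mice with the alleles POMCDre+/- Glp1rCre+/- ROSA26lSlrSrEGFPL10a+/-, in 3 pools of 6 males and 6 females, and in POMC-Lepr+ neurons of mice with POMCDre+/- LeprCre+/- ROSA26lSlrSrEGFPL10a+/-, in 4 pools of 3 males and 3 females. Mice of both lines were random-fed and, by the study's methods, 12 weeks old, and each of the 7 pools gave an IP and an input library. The tag needs both recombinases, so it marks cells in which the POMC promoter of a transgene and the Glp1r or Lepr allele were active at some time. The dissection is given as the arcuate nucleus in the sample labels and as the whole hypothalamus in the methods.

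The receptors of this family signal through gp130, the product of Il6st. Interleukin 6, interleukin 11 and ciliary neurotrophic factor first bind an alpha receptor that has little or no signalling of its own, and the complex then joins gp130 with itself or with Lifr. Leukaemia inhibitory factor and oncostatin M need no alpha receptor and bind gp130 with Lifr or Osmr directly. Janus kinases bound to these chains phosphorylate STAT3, and SOCS3 is made in response and inhibits the receptor. The leptin receptor belongs to the same structural family, and ciliary neurotrophic factor lowers food intake in rodents.

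Each value is the authors' mean over the 7 pools of the IP count divided by the input count of the same pool. The steps of the values are those of counts to which 1 was added. A ratio of 1 means as many counts in the IP as in the input, and a gene without reads in any library also has exactly 1. The ratio compares the RNA of the pulldown with that of the tissue and does not show how abundant a transcript is. RNA that came down without the tag was not measured. Some markers of other cells had ratios above 1. These were 4 of 11 endothelial and mural markers, 1 of 7 tanycyte and ependymal markers and 1 of 10 microglia markers. Pecam1 of the first list stood at 1.55 and Vim of the second at 3.90. Each was the highest of its list. The list medians were 0.967 for 11 endothelial and mural markers and 0.783 for 7 tanycyte and ependymal markers. The ratios were not scaled to the depth of the libraries, so the members were also set against the median of the 18379 protein-coding genes with a mean ratio other than exactly 1, which was 1.14, with quartiles at 0.868 and 1.48. The mean pools both lines. The deposited table held no values of single libraries. The separate lines were not described, because its remaining numeric columns hold the authors' own comparison of the lines. There is therefore no error or n of replicates for any mean below, and no difference between members or lists was tested. The mean of 7 ratios also does not show whether 1 pool sets it. With 1 added to counts, ratios of genes with few reads are coarse and drawn towards 1.

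Markers of the targeted cells were high in the pulldown. Pomc, the precursor of the melanocortins, had a mean IP/input ratio of 171.7, and all 6 POMC neuron markers lay at the 2.52 of Pcsk1, a prohormone convertase, or above. The 34 markers of astrocytes, oligodendrocytes and microglia had a median ratio of 0.439 and ran from 0.326 to 1.15. The 14 pan-neuronal genes had a median of 1.34, with Map2 the lowest at 0.571 and Gap43 the highest at 2.05.

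None of the 8 members was enriched in the pulldown in the way of Pomc. Their ratios ran from 0.335 to 1.26 with a median of 0.885, against the median of 1.14 for protein-coding genes. The 6 receptors had a median of 1.02, and the ligands Lif and Cntf were the lowest. Of the 8, Cntfr and Osmr lay above the median protein-coding gene and 6 lay below it. No member reached 2 times that median, a level that 6.09% of the protein-coding genes reached. Lif and Cntf lay at or below 0.5 times it, as did 7.34% of the protein-coding genes. The order from high to low was Cntfr, Osmr, Il11ra1, Il6st, Il6ra, Lifr, Lif and Cntf. Without an error of each mean, it cannot be said which neighbours in that order differ, and Cntfr and Osmr as well as Il11ra1 and Il6st had almost equal values.

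**Figure D1:**
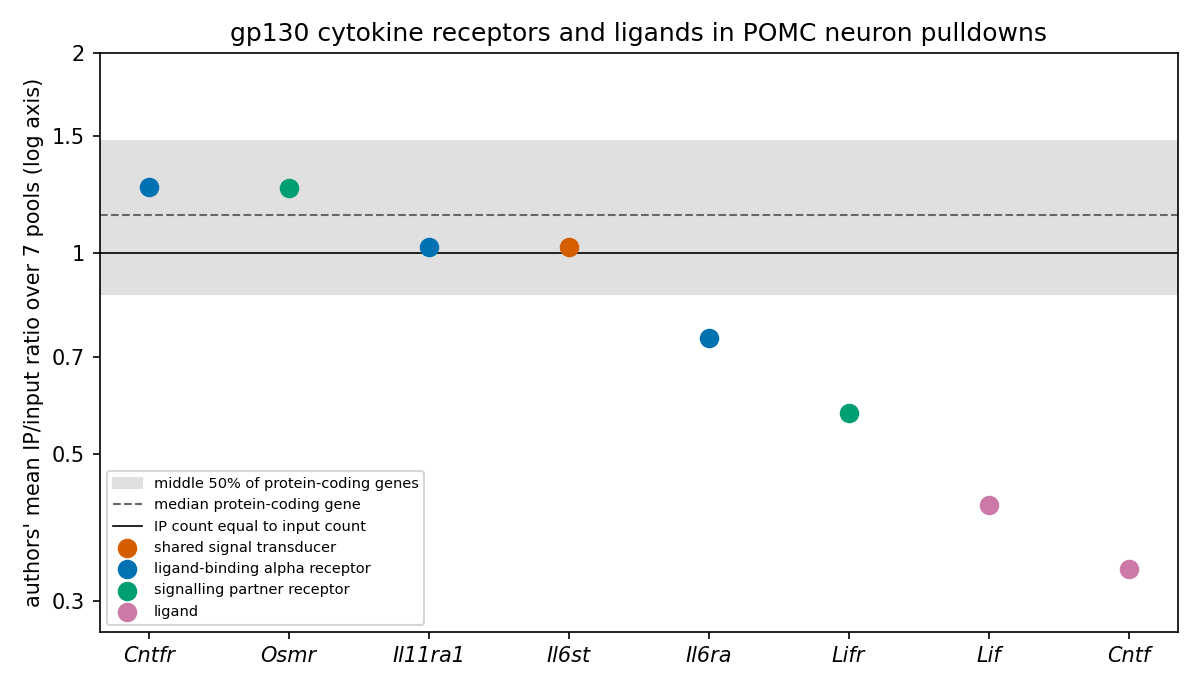
Mean IP/input ratio over 7 pools (log axis) of the 8 gp130 family genes, 1 point per gene coloured by role, with no error bars because only the mean was used. The grey band runs between the quartiles of 18379 protein-coding genes (0.868 and 1.48), the dashed line their median (1.14) and the solid line a ratio of 1. Cntfr, Osmr, Il11ra1 and Il6st lie inside the band, and Il6ra, Lifr, Lif and Cntf lie under it.

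The shared signal transducer was close to input. Il6st (ENSMUSG00000021756, chromosome 13 of GRCm38, 112464070 to 112510086), which encodes gp130, had a mean ratio of 1.02. That is 0.896 times the median protein-coding gene, above 39.4% of these genes. Il6st lay above 33 of the 34 glial markers and above 2 of the 14 pan-neuronal genes.

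The mean ratios of the 3 alpha receptors ran from 0.747 to 1.26, and their differences were not tested. Cntfr (ENSMUSG00000028444, chromosome 4, 41657498 to 41697089) encodes the receptor for ciliary neurotrophic factor, which is held to the membrane by a lipid anchor and is known from neurons. Its ratio was 1.26, the highest of the 8, at 1.10 times the median protein-coding gene. It exceeded all 34 glial markers and 5 of the 14 pan-neuronal genes, so it was not above the middle of neuronal transcripts. Il11ra1 (ENSMUSG00000073889, chromosome 4, 41699989 to 41769474), the receptor for interleukin 11, had a ratio of 1.02, above 39.5% of protein-coding genes. Il6ra (ENSMUSG00000027947, chromosome 3, 89864059 to 89913196), the receptor for interleukin 6, was lower, with a ratio of 0.747, 0.654 times the median and above 16.0% of protein-coding genes. The 7 ratios of Il6ra sum to 5.23 and cannot be negative. At least 2 pools therefore had fewer Il6ra counts in the IP than in the input. These counts were not scaled to depth, and 6905 of the 18379 protein-coding genes had a mean ratio under 1.

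The partner receptors lay on either side of the median. Osmr (ENSMUSG00000022146, chromosome 15, 6813577 to 6874969), which joins gp130 in the receptor for oncostatin M, had a ratio of 1.25, above 59.7% of protein-coding genes. Lifr (ENSMUSG00000054263, chromosome 15, 7090614 to 7197489), which joins gp130 in the receptors for leukaemia inhibitory factor and ciliary neurotrophic factor, had a ratio of 0.576. This is 0.504 times the median, just inside the 2-fold limit, and above 7.53% of protein-coding genes. At least 3 of the 7 pools had fewer Lifr counts in the IP than in the input, without scaling to depth. Lifr still lay above all 12 astrocyte markers and above 30 of the 34 glial markers, and below 13 of the 14 pan-neuronal genes. The neuronal alpha receptor Cntfr and its partner Lifr thus had unequal means, and the size of this difference relative to the spread between pools was not tested.

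The ligands had mean ratios under 1 in both lines. Lif (ENSMUSG00000034394, chromosome 11, 4257557 to 4272514), leukaemia inhibitory factor, had a ratio of 0.419, which is 0.367 times the median (log2 -1.45) and above 2.75% of protein-coding genes. Cntf (ENSMUSG00000079415, chromosome 19, 12763660 to 12765632), ciliary neurotrophic factor, a cytosolic protein without a signal peptide that is known from astrocytes and Schwann cells, had a ratio of 0.335. That is 0.294 times the median (log2 -1.77), above 1.08% of protein-coding genes. These means are low enough to bound each line by arithmetic. The 7 ratios of Cntf sum to 2.35, so its mean was at most 0.783 among the 3 POMC-Glp1r+ pools and at most 0.587 among the 4 POMC-Lepr+ pools. Lif could reach at most 0.978 among the POMC-Glp1r+ pools and 0.734 among the POMC-Lepr+ pools. For each of these ligands at least 5 of the 7 pools had a ratio under 1, without scaling to depth. For Lifr the limit was 1.34 among the POMC-Glp1r+ pools and 1.01 among the POMC-Lepr+ pools, so its pooled mean does not fix on which side of input either line lay.

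Cntf and Lif lay under the median of 0.439 of the 34 glial markers. Lifr, Il6ra, Il6st and Il11ra1 also lay inside the range of these markers, 0.326 to 1.15. Lifr was above 30 of the 34, and Il6ra, Il6st and Il11ra1 were each above 33. Of the 34, 2 were lower than Cntf and 12 lower than Lif. All 12 astrocyte markers lay between 0.326 (Slc1a3) and 0.558 (Gfap), the 12 oligodendrocyte markers between 0.331 (Pdgfra) and 0.648 (Cspg4), and the 10 microglia markers between 0.377 (P2ry12) and 1.15 (Trem2). The 11 endothelial and mural markers had a median of 0.967 and ran from 0.350 (Cdh5) to 1.55 (Pecam1). The 7 tanycyte and ependymal markers had a median of 0.783 and ran from 0.396 (Nes) to 3.90 (Vim). The part of RNA from other cells in the members' ratios was not tested. In such bulk libraries, fewer cells of a type and less RNA per cell cannot be told apart.

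**Figure D2:**
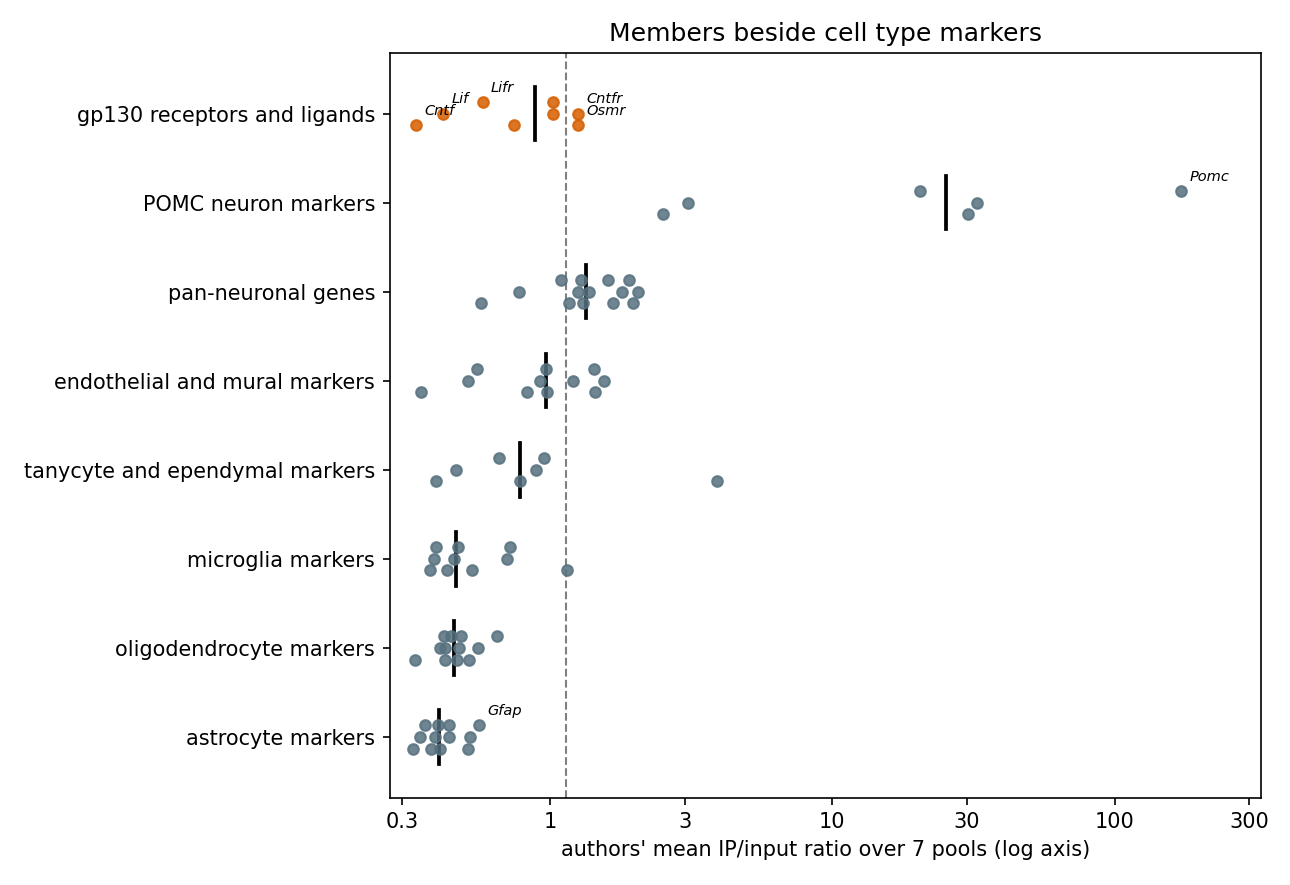
Mean IP/input ratio over 7 pools (log axis) of the 8 gp130 family genes (orange) and of cell type markers (grey), 1 point per gene, with a black bar at each list's median and a dashed line at the median protein-coding gene; the vertical offset within a row only separates points. The glial markers run from 0.326 to 1.15, a range that holds Cntf, Lif, Lifr, Il6ra, Il6st and Il11ra1. Pomc stands at 171.7.

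The sequences of 2 members limit what their ratios measure. Il11ra1 has near-identical copies on the same chromosome. Its coding sequence of 1299 bases differs from that of Gm13305 at 13 positions and from that of Il11ra2 also at 13. The stretch shown is a 60-base coding window within a single exon with the most positions that differ among the 3 genes, and even there only 2 bases, in capitals, separate Il11ra1 from the copies, which are identical to each other in it. It lies in Il11ra1 at chr4:41766111-41766170 on the plus strand, in Gm13305 at chr4:42162146-42162205 and in Il11ra2 at chr4:42659305-42659364, both on the minus strand (GRCm38, sequences from GENCODE M21).
Il11ra1: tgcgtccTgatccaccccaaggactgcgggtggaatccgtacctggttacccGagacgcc
Gm13305: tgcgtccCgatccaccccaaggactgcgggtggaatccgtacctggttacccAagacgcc
Il11ra2: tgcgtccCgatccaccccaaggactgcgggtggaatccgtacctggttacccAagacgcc

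Of all 75-base words in the annotated transcripts of Il11ra1, 35.9% also occur in Gm13305, and of the 100-base words 29.1%. How Salmon divided such reads among the copies is an estimate. Gm13305 had a ratio of 0.926 and Il11ra2 of 0.896, both under the 1.02 of Il11ra1. Cntf shares still more. It lies within the span of Zfp91 on the same strand, and 77.5% of its 75-base words occur in annotated Zfp91 transcripts. Zfp91, which encodes a zinc finger protein, had a ratio of 0.844, higher than the 0.335 of Cntf. For Il6ra 1.97% of the words were shared, with Gm42809, a gene model that overlaps it. The transcripts of Il6st, Cntfr, Lifr, Osmr and Lif had no 75-base word in common with another gene.

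Some members are neighbours in the genome. Cntfr and Il11ra1 are 2899 bases apart, and Osmr and Lifr are 216 kb apart. The mean ratios were 1.26 for Cntfr and 1.02 for Il11ra1, and 1.25 for Osmr and 0.576 for Lifr. No difference within a pair was tested. None of the 15 promoter windows of the 8 members (300 bases each from before to just after the gene start, RefSeq, GRCm38.p6) held the palindromic STAT motif TTCNNNGAA, which occurs in 8.30% of 32851 windows of the same length. This says only that these letters are not in these windows.

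The rest of the family and its pathway ranged more widely than the members. Among 6 further receptors the leptin receptor Lepr, one of the genes that defines the lines, stood at 6.13, and the next, Il27ra, at 1.15. Il12rb2 had a ratio of 1.02, Il12rb1 of 0.810, Il31ra, the partner of Osmr in the receptor for Il31, of 0.754, and Csf3r, the receptor for granulocyte colony-stimulating factor, of 0.605. Without Lepr, all of these lay within the range of the 8 members. Lepr thus had 6.13 beside 1.02 for Il6st, its structural relative, a difference whose error is not known. The mean of Lepr joins 4 pools of the line marked through the Lepr allele with 3 of the other line, so it need not hold in either.

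Of 10 other ligands and soluble subunits, 5 lay above the median protein-coding gene. Clcf1, a ligand of the Cntfr complex, had a ratio of 1.57, above the 0.335 of Cntf. The cardiotrophins Ctf1 and Ctf2 stood at 1.36 and 0.462. Il6, Il11 and Osm, the cytokines for Il6ra, Il11ra1 and Osmr, had ratios of 0.667, 1.15 and 0.790, Ebi3 had 1.60 and Il27 the highest, 2.86. The 7 ratios of Il27 sum to a whole number, as they would with few or no input reads, so its value is coarse. Il31 was at exactly 1, as were 13059 genes of the table. With 1 added to counts, a gene without reads has this value, so it does not show that Il31 was detected.

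Downstream of the receptors, Socs3 stood out at 9.95. Of 11 Janus kinases and STATs, 6 lay above the median protein-coding gene. Stat3, the main STAT of gp130 and of the leptin receptor, was the highest with 3.13, and Stat4 the lowest with 0.489. Jak1, Jak2 and Tyk2, the kinases that bind gp130, had ratios of 1.13, 1.53 and 1.35. Of 15 inhibitors, Socs3 and Socs1, at 3.11, exceeded 2 times the median, and Ptpn6, a phosphatase of blood cells and microglia, was the lowest at 0.603. Of the 5 adaptors of the MAPK branch, 4 were above the median, with Shc1 at 1.79 and Gab1 the lowest at 0.640. No member passed 1.26. Of the other family and pathway genes, Socs3, Lepr, Stat3, Socs1 and Il27 exceeded 2 times the median, a comparison of means without error. Among these, Lepr is a gene that defines the lines, and the value of Il27 is coarse.

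**Figure D3:**
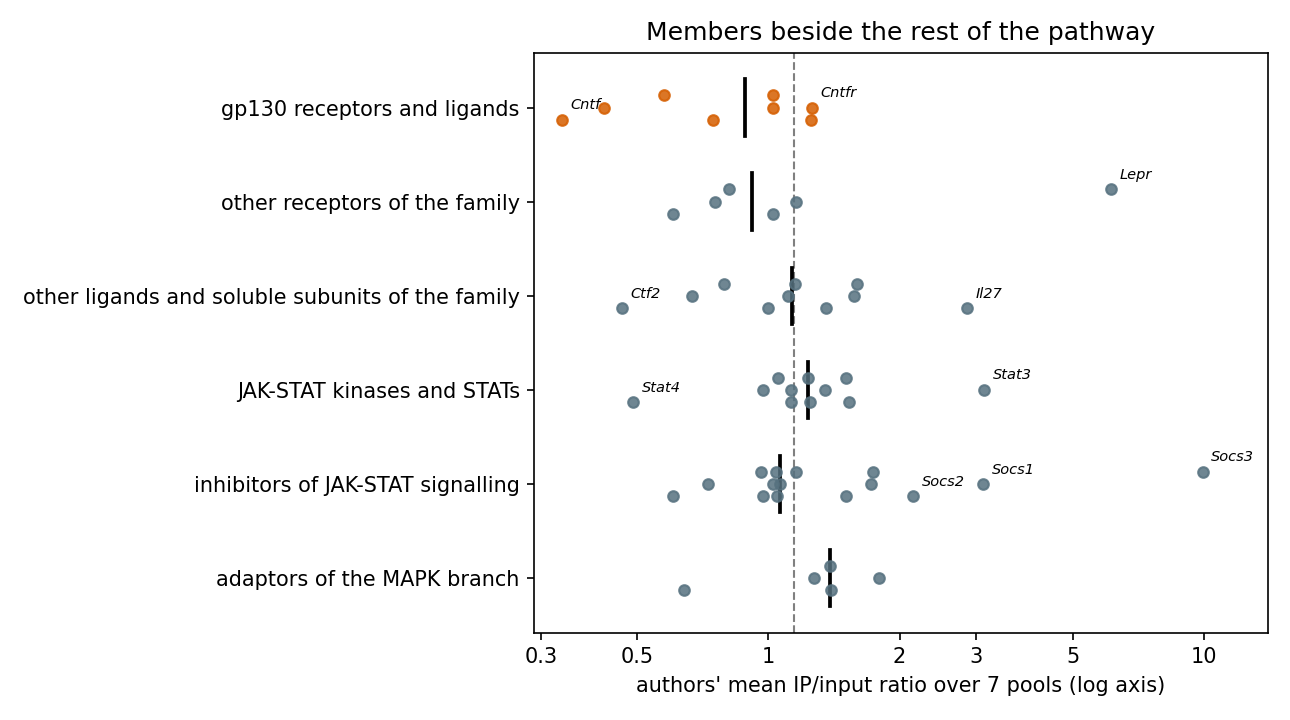
Mean IP/input ratio over 7 pools (log axis) of the 8 gp130 family genes (orange) and of the other receptors, ligands and signalling genes (grey), 1 point per gene, with a black bar at each list's median and a dashed line at the median protein-coding gene; the vertical offset within a row only separates points. Socs3 (9.95), Lepr (6.13) and Stat3 (3.13) are far to the right of the members, whose highest value is 1.26.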

How the data were processed

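For 14 libraries the authors ran the nf-core RNA-seq pipeline (STAR on GRCm38.p6, gene counts estimated by Salmon 0.14.1) and divided IP by input in each pool. The methods give reads of 75 bp and the labels 100 bp. The deposited table was made with the authors' DESeq2 (1.26.0). Its mean, the only column used, is a score that the authors deposited: the mean over 7 pools of ratios multiplied by 1000. Times 7, it was whole in 100% of genes (tolerance 1e-06). The mean was exactly 1000 in 13059 genes; 1162 had a sum lower by 500 and 323 one higher by 1000, the steps of a single input or IP read when 1 is added to counts. The other numeric columns (log2 fold change, its error, the Wald statistic, p and adjusted p of POMC-Glp1r+ against POMC-Lepr+) are the authors' own comparison and were neither used nor printed. No column of the deposited table held values of single libraries, and read totals are not known, so depth gives no interval or floor.

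Means were divided by 1000 and ranked among protein-coding genes (percent lower, ties at 0.5). Limits for a line are the sum of ratios divided by its 4 or 3 pools. A limma test between lines was foreseen for values per library; none was made. Members and lists were chosen with earlier results of these data known. The genes named are the 8 members, family receptors and ligands, the highest and lowest of each list, and Lepr, Socs3 and Pomc. Socs1, Jak1, Jak2, Tyk2 and the genes sharing sequence fall outside this rule and were named after their values were seen. A family gene that the rule would name is not reported here. Positions and transcripts are from GENCODE M21 (GRCm38). Scripts ran under Python (3.11.15) with pandas (2.3.3), scipy (1.17.1) and numpy (2.4.6), figures with matplotlib (3.10.9), and were tested on simulated data. Alternatives were other reference genes, a ratio of 1 as the reference, fold limits and lists of members. No other scaling of the ratios was tried.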

Additional observations from a re-analysis of the deposited data

How the results depend on the processing

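No paired analysis was possible because the mean used pools all libraries, and for the same reason no replicate could be left out. With all genes whose mean ratio is other than 1, or all protein-coding genes, as the reference, or without Il11ra1 and Cntf, the number of members above the median stayed at 2. It was 4 against a ratio of 1 and 0 against the median pan-neuronal gene (1.34). The median ratio of the members was 1.02 for the receptors alone and 0.885 without Il11ra1 and Cntf. At a fold limit of 1.5 in place of 2, the number of members at or below it was 4, and at 3 it was 1; no member passed the upper limit at either. Percentiles of single members moved by at most 8.28 points with the reference genes. Depth was not known and limits every ratio.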
